A study of Mus musculus with 2 samples.

Results

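The MYC, MAX and MXD network is a group of transcription factors that dimerise through a basic helix-loop-helix leucine zipper and compete for the same DNA site. The members were the rows of the deposited gene table named Myc, Mycl, Mycn, Max, Mxi1, Mxd1, Mxd3, Mxd4, Mnt and Mga, which made 10 of 54532 genes. Of these 10, 8 had a level of 1 CPM (counts scaled to a library total of 1000000) or more in either library, as had 12273 genes in all, while Mycl and Mycn did not. RNA came from CMT167R cells, a mouse lung carcinoma line that the labels describe as resistant to anti-PD1, an antibody that blocks the T cell checkpoint receptor PD-1. An untreated culture (CON) and a culture kept for 24 h with 50 nM of a compound that the labels name only as PKCi made up the design, so each group was 1 library and both groups were the same resistant line. No parental line was analysed here, and no difference below has a replicate check or a p-value.

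Each library held about the same number of gene counts, 16090186 for CON and 16071153 for PKCi, so that 1 CPM stood for 16.1 counts in each. The most that 0 counts permit (3 counts of the total) was 0.186 CPM in CON and 0.187 CPM in PKCi. Folds are ratios of CPM with exact conditional binomial 95% intervals, which cover counting error only, since each group is 1 library. The intervals take each count as a separate molecule, and whether reads repeat a molecule was not tested. In such bulk RNA, fewer cells that make a message and less of it per cell cannot be told apart. Of 8 lung and epithelial markers, the keratin genes Krt8 (933 CPM in CON, 1182 CPM in PKCi) and Krt18 (643 and 765 CPM) were abundant, whereas the lung lineage factor gene Nkx2-1 and the surfactant gene Sftpc were at 0 counts in both libraries. One protocol in the labels speaks of retinas; the 8 retina markers summed to 0.249 CPM in CON and 0.373 CPM in PKCi, and 5 of them were at 0 in both.

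MYC proteins bind DNA only as dimers with MAX and recruit coactivators, and they are known as drivers of ribosome production, metabolism and cell division in many tumours, lung carcinoma included. MXD proteins, MXI1 (also called MXD2) and MNT pair with the same MAX and bring in SIN3 corepressor complexes, so they oppose MYC at shared sites. The shared site is the E-box CACGTG. MGA joins a helix-loop-helix domain to a T-box domain, and it anchors a Polycomb complex, PRC1.6, that silences germline genes.

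In the PKCi library the genes of the MYC antagonists Mxd4, Mxd1, Mnt and Mxi1 were all higher, by 8.56-, 5.13-, 2.72- and 2.62-fold, while the antagonist gene Mxd3 was 3.93-fold lower. Myc itself was 1.27-fold higher and Max 1.20-fold lower. On the scale log2((PKCi + 1)/(CON + 1)) in CPM, 4 of the 8 measured members were higher by 2-fold or more and 1 was lower by 2-fold or more, where 6.53% and 5.13% of the 12273 measured genes were. At 1.5-fold the members' counts were also 4 and 1, where 16.8% and 16.7% of measured genes passed. The median log2 ratio of the 8 was 0.85 and that of all measured genes was −0.01, with quartiles at −0.41 and 0.39.

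**Figure D1:**
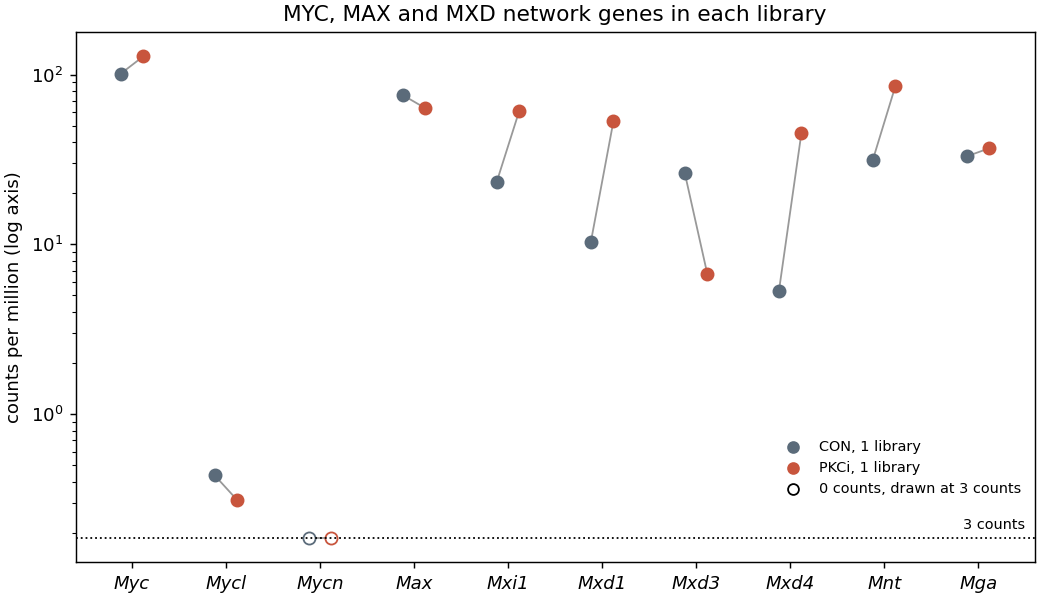
Level of each network gene in CPM (log axis) in the CON library and the PKCi library, 1 point per library, with lines joining the libraries. Mxi1, Mxd1, Mxd4 and Mnt lie higher with PKCi and Mxd3 lower; Myc, Max and Mga lie close together, and Mycn, with 0 counts in both, is drawn at 3 counts.

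Myc encodes the MYC protein that most proliferating cells use. It had 1628 counts (101 CPM) in the CON library and 2058 counts (128 CPM) in the PKCi library. This 1.27-fold higher level (95% interval 1.18 to 1.35) was outside counting error but ordinary in size, since 56.5% of measured genes had an absolute log2 ratio at least as large. Mycl, the paralog first found in lung cancer, had 7 counts in CON and 5 in PKCi, too few to show a difference (0.715-fold, 95% interval 0.179 to 2.62). Mycn, the neural paralog, had 0 counts in both libraries. Myc therefore gave nearly all MYC family counts in each library. Myc lies on chromosome 15 from 61985391 to 61990374 on the plus strand of GRCm38. The measured protein-coding genes nearest to Myc in log2 CPM over both libraries were Nf1 (99.4 and 129 CPM), Atf7ip (99.5 and 126 CPM) and Tbrg1 (100.1 and 124 CPM), a likeness over 2 libraries only.

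Max, which encodes the dimer partner shared by the other members, had 1218 counts (75.7 CPM) in CON and 1018 counts (63.3 CPM) in PKCi. Its level was 1.20-fold lower (95% interval 1.10 to 1.30), and 66.4% of measured genes had an absolute log2 ratio at least as large. Mga had 531 counts in CON and 592 counts in PKCi, or 33.0 and 36.8 CPM, and its interval included no difference (1.12-fold, 95% interval 0.991 to 1.26). The genes that encode the shared partner and the T-box member thus differed little between the libraries.

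Mxd4 encodes an MXD repressor associated with cells that leave the cell cycle. It had 85 counts (5.28 CPM) in the CON library and 727 counts (45.2 CPM) in the PKCi library, 8.56-fold higher (95% interval 6.83 to 10.9). With a log2 ratio of 2.88 it was exceeded by 22 of the 12273 measured genes. Mxd1, the founding member of the MXD group and linked to differentiation, had 166 counts (10.3 CPM) in CON and 851 counts (53.0 CPM) in PKCi. It was 5.13-fold higher (95% interval 4.34 to 6.10), and 77 measured genes had a higher log2 ratio. Both genes were thus scarce in untreated cells and moderately expressed in the treated ones. The genes nearest to Mxd4 in log2 CPM over the 2 libraries were Hist1h2bc, a histone H2B gene (6.53 and 39.9 CPM), the kinase gene Dyrk1b (5.78 and 35.6 CPM) and Plxnd1, a semaphorin receptor gene (6.90 and 49.03 CPM).

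Mnt encodes a broadly expressed MAX partner that represses through SIN3. It had 507 counts (31.5 CPM) in CON and 1378 counts (85.7 CPM) in PKCi, 2.72-fold higher (95% interval 2.46 to 3.02). Mxi1 encodes a SIN3-binding relative of MXD1. It had 377 counts (23.4 CPM) in CON and 987 counts (61.4 CPM) in PKCi, 2.62-fold higher (95% interval 2.33 to 2.96). The intervals of Mnt and Mxi1 overlapped, and neither overlapped the intervals of Mxd1 or Mxd4.

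Mxd3 differed in the opposite direction to its relatives. MXD3 is the member of the group known to be made in proliferating cells, in S phase. The gene had 421 counts (26.2 CPM) in CON and 107 counts (6.66 CPM) in PKCi, 3.93-fold lower (95% interval 3.17 to 4.91), and 58 measured genes had a lower log2 ratio. At its 3′ end 105 exon bases of Mxd3, 4.43% of the total, overlap exons of Prelid1 on the opposite strand. Prelid1 had 10720 counts in CON and 9897 counts in PKCi, and whether any of its reads were counted for Mxd3 was not tested, as the strand setting of the counting is not given in the sources used here and the labels name both a stranded kit and one that does not mark strand. Mxd4 shares 6.06% of its exon bases with the antisense gene Gm42846 and Mxi1 shares 2.84% with Gm10197, and both of those genes had 0 counts in each library. The other members shared no exon bases with another gene.

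**Figure D2:**
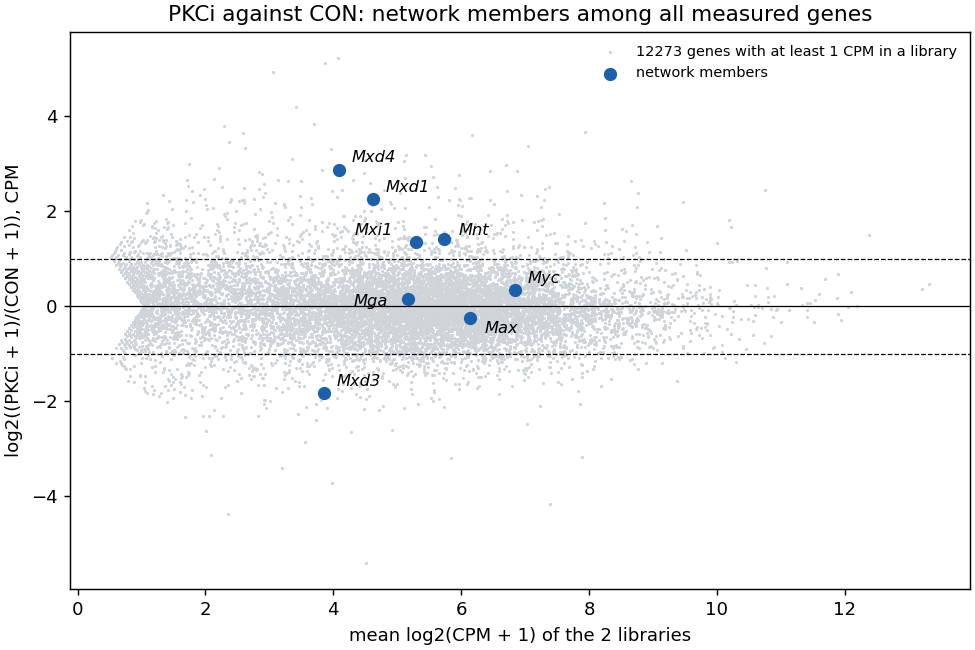
Log2((PKCi + 1)/(CON + 1)) in CPM against the mean log2(CPM + 1) of both libraries for 12273 measured genes (grey) and the 8 measured network members (blue), with dashed lines at 2-fold. Mxd4, Mxd1, Mnt and Mxi1 lie above the upper line and Mxd3 below the lower line.

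The promoters of Mxd4 and Mnt are shown because both genes were higher by 2-fold or more and hold the network's own site, and those of Mxd1 and Mxd3 because these relatives differed in opposite directions. Mxi1, which has 3 start sites and no E-box, is not printed. Sequences are from RefSeq on GRCm38.p6, where 9 of the 10 members had an entry, with 11 start sites among them, and Myc had none. Each stretch covers bases before the start site that lie in no annotated exon, reads 5′ to 3′ on the gene's strand, and has CACGTG in capitals.
Mxd4 promoter (chr5:34187721-34187960, minus strand): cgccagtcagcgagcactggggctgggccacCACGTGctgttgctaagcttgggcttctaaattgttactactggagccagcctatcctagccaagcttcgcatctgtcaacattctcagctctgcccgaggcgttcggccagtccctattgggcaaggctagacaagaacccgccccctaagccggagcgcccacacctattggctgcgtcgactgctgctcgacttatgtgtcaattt
Mnt promoter (chr11:74830674-74830919, plus strand): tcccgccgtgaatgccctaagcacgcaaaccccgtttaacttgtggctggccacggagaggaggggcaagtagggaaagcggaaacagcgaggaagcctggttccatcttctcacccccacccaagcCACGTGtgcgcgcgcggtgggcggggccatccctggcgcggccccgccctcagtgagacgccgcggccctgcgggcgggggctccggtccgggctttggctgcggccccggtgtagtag
Mxd1 promoter (chr6:86669162-86669409, minus strand): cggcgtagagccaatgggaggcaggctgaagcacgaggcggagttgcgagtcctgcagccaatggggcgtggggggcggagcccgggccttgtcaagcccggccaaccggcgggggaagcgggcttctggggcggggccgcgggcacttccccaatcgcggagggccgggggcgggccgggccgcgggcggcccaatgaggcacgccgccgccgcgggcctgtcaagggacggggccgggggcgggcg
Mxd3 promoter (chr13:55329824-55329981, minus strand): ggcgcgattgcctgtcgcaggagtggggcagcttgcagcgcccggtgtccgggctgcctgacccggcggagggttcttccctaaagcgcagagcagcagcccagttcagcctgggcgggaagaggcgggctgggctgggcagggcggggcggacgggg
Position 0 is the first transcribed base. The window searched ran over 300 bases, from 250 before the start to 50 after its first base, and both strands were read. The E-box CACGTG began at position −219 of Mxd4, −123 of Mnt and −3 of Max. It was in no window of Mxd1, Mxd3, Mga, Mycl, Mycn or Mxi1. Among all 32851 RefSeq windows, 7.15% held it. Counted per gene, 11.9% of 8987 measured genes with a promoter held it. The E2F letters TTTGGCGC, TTTCCCGC or TTTCGCGC (1.84% of windows) matched Mycn, 3 times and in part overlapping, and no other member. The FOXO letters TGTTTAC (3.65% of windows) matched 1 of 3 Mxi1 starts, at position −231, and the AP-1 letters TGANTCA (7.81% of windows) matched no member. GC content was 76.7% for the whole Mxd1 window, 71.0% for Mxd3, 70.7% for Mnt and 61.0% for Mxd4, against a median of 52.7% over all windows. Mxd1, higher with PKCi, and Mxd3, lower with PKCi, thus had windows of like GC content. Neither held the exact letters of any of the 4 motifs. Near forms of these sites were not searched, so their absence is not shown. A match is a run of letters and does not show binding.

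Levels of different genes were compared per length, as TPM, which divides counts by the deposited gene length before scaling to 1000000. The order of genes, such as Mnt against Max, depends on these lengths. The deposited length was 3598 bases for Max and 4627 for Mnt, against 1942 and 4590 in their longest coding transcripts. In the CON library the order was Myc (121 TPM), Max (68.3 TPM), Mxd3 (35.9 TPM), Mnt (22.1 TPM), Mxi1 (13.5 TPM), Mga (6.99 TPM), Mxd1 (4.74 TPM), Mxd4 (2.02 TPM) and Mycl (0.350 TPM), with Mycn at 0. In the PKCi library it was Myc (154 TPM), Mnt (60.5 TPM), Max (57.5 TPM), Mxi1 (35.7 TPM), Mxd1 (24.5 TPM), Mxd4 (17.4 TPM), Mxd3 (9.18 TPM), Mga (7.84 TPM) and Mycl (0.252 TPM). Mxd3 was the most abundant antagonist message in CON and the least abundant in PKCi. It made up 45.8% of the summed antagonist level in CON and 6.23% in PKCi. Mnt made up 28.3% and 41.1%, Mxi1 17.3% and 24.2%, Mxd1 6.05% and 16.6%, and Mxd4 2.58% and 11.8%.

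The 5 antagonist genes summed to 78.3 TPM in CON and 147 TPM in PKCi, and the MYC family genes to 121 and 154 TPM. There were 0.645 antagonist messages per MYC family message in CON (95% interval 0.600 to 0.694) and 0.955 in PKCi (95% interval 0.905 to 1.01). The second ratio was 1.48 times the first (95% interval 1.35 to 1.62, counting error only). Without Mxd3, a choice made after seeing the data, it was 2.56 times the first. Both ratios depend on the gene lengths, which their intervals do not cover. With longest coding transcripts as lengths, also chosen after seeing the data, they were 0.802 in CON and 1.07 in PKCi. The 95% interval of the latter was 1.02 to 1.13. Whether antagonist messages outnumbered MYC family messages in PKCi thus turned on the lengths used. Per Max message, antagonists stood at 1.15 in CON and 2.56 in PKCi, and MYC family messages at 1.78 and 2.68. The levels per Max message rest on its deposited length of 3598 bases. They were not computed with its longest coding transcript of 1942 bases. These are ratios of messages, and proteins were not measured.

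**Figure D3:**
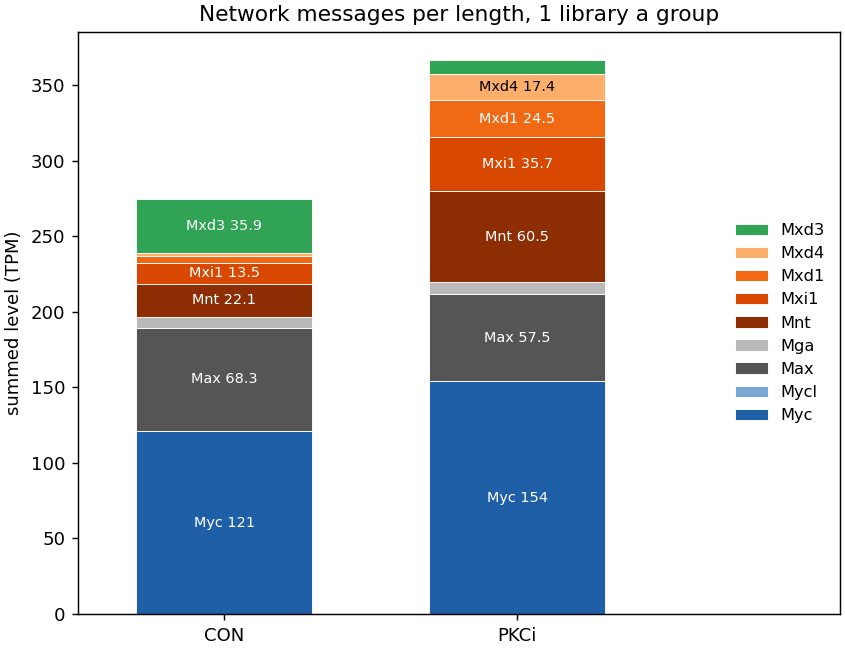
Summed level in TPM of the network genes in each library, with a segment for each gene and no error bars since each bar is 1 library. Mxd3 (green) goes from 35.9 TPM in CON to 9.18 TPM in PKCi, and Mnt, Mxi1, Mxd1 and Mxd4 (brown to orange) take a larger part with PKCi.

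The deposited table assigns 9 of the members to the bHLH family and Mga to the T-box family. Of 100 bHLH genes in the table, 37 were measured. Of the 30 measured bHLH genes outside the network, 2 were higher by 2-fold or more and 4 lower by 2-fold or more, and their median log2 ratio was 0.08. Of all measured genes, 6.53% were higher and 5.13% lower by 2-fold or more. In the ranking of all 37 by log2 ratio, Mxd4 and Mxd1 stood first and second and Mxd3 last. Id3, which encodes an inhibitor of bHLH proteins, stood between Mxd1 and Mnt at 6.28 CPM in CON and 19.8 CPM in PKCi. The related inhibitor genes Id2 and Id1 went the other way. Both stood near the bottom of the ranking and were lower by 2-fold or more with PKCi. This order describes 1 library a group and was not tested.

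**Figure D4:**
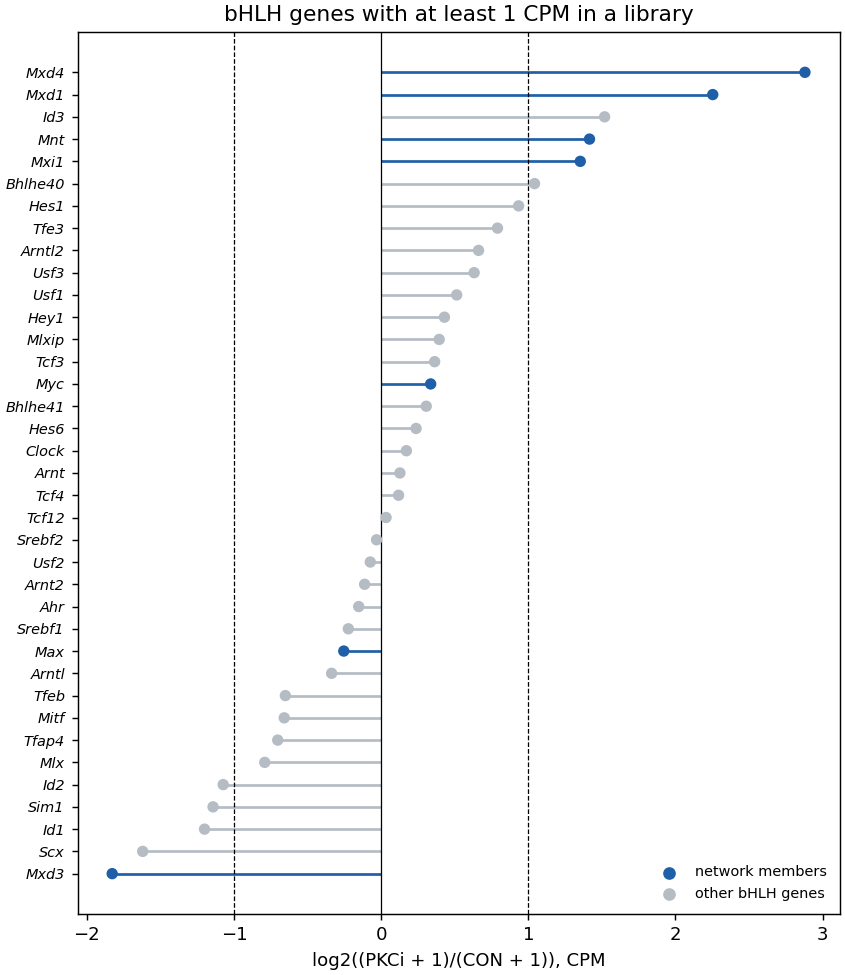
Log2((PKCi + 1)/(CON + 1)) in CPM of the 37 measured bHLH genes, 1 point per gene, with network members in blue and dashed lines at 2-fold. Mxd4 is at 2.88 and Mxd1 at 2.25 at the top, and Mxd3 is at −1.83 at the bottom.

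The MLX branch is a parallel set of dimers in which MLX takes the place of MAX. Mlx had 964 counts (59.9 CPM) in CON and 550 counts (34.2 CPM) in PKCi, 1.75-fold lower (95% interval 1.58 to 1.95). Mlxip, which encodes the glucose-responsive partner MondoA, had 498 counts in CON and 659 in PKCi, 1.33-fold higher (95% interval 1.18 to 1.49), and Mlxipl, which encodes ChREBP, had 0 counts in both libraries. Txnip, a MondoA target whose product limits glucose uptake, had 64 counts (3.98 CPM) in CON and 776 counts (48.3 CPM) in PKCi. It was 12.1-fold higher (95% interval 9.40 to 15.9), whereas Arrdc4, another MondoA target, had 0 counts in both.

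Genes that MYC is known to activate were mostly lower in the PKCi library, although Myc was not. Of 89 measured genes in 3 lists, 35 were lower by 2-fold or more and 2 higher by 2-fold or more, 79 were below 0 and 10 above. The median log2 ratio of these genes was −0.88. Of all measured genes, 5.13% were lower and 6.53% higher by 2-fold or more, and 50.8% were below 0 and 49.2% above. The lists share genes with ribosome assembly and DNA replication, which many other factors also control, so they do not isolate MYC activity.

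In the list of nucleolus, ribosome assembly, translation and mitochondrial genes, 20 of 43 measured were lower by 2-fold or more and 0 higher by 2-fold or more, with a median of −0.98. The shares of all measured genes were 5.13% lower and 6.53% higher. Dkc1, which encodes the pseudouridine synthase dyskerin, had 1921 counts (119 CPM) in CON and 609 counts (37.9 CPM) in PKCi, 3.15-fold lower. Hspd1, a mitochondrial chaperonin gene, was at 1147 and 383 CPM and its partner Hspe1 at 207 and 76.7 CPM. Tcof1, whose product serves ribosomal RNA transcription, was 2.73-fold lower at 208 and 76.4 CPM. The only measured gene of this list above 0 was Exosc5, an exosome subunit gene, with 446 and 449 counts. It was named after its value was seen.

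The metabolic list had 28 measured genes, of which 10 were lower by 2-fold or more and 1 higher by 2-fold or more, with a median of −0.77. Of all measured genes, 5.13% were lower and 6.53% higher by 2-fold or more. The extremes of the metabolic list were neighbours in 1 pathway, polyamine synthesis. Odc1, ornithine decarboxylase and a textbook MYC target, had 11845 counts (736 CPM) in CON and 64737 counts (4028 CPM) in PKCi, 5.47-fold higher (95% interval 5.37 to 5.58). Srm, spermidine synthase, had 4999 counts (311 CPM) in CON and 1145 counts (71.2 CPM) in PKCi, 4.36-fold lower (95% interval 4.09 to 4.65). The folate carrier gene Slc19a1 was at 55.1 and 17.0 CPM and the pyrimidine synthesis gene Umps at 114 and 44.7 CPM. The summed level of this list was 18145 CPM in CON and 18417 CPM in PKCi, of which Odc1 alone took 736 and 4028 CPM.

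Of 18 measured cell cycle and chromatin genes of this kind, 5 were lower by 2-fold or more and 1 higher by 2-fold or more, with a median of −0.73. Among all measured genes 5.13% were lower and 6.53% higher by 2-fold or more. Cdca7, a chromatin gene named as a MYC target, had 1156 counts (71.8 CPM) in CON and 247 counts (15.4 CPM) in PKCi, 4.67-fold lower. The replicative helicase genes Mcm5 and Mcm4 were at 418 and 121 CPM and at 275 and 103 CPM. The mitotic kinase gene Plk1 was 2.16-fold lower. The gene higher by 2-fold or more was Tert, the telomerase reverse transcriptase, with 232 counts in CON and 480 in PKCi (2.07-fold, 95% interval 1.77 to 2.43), and it was under 2-fold under 4 other settings.

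**Figure D5:**
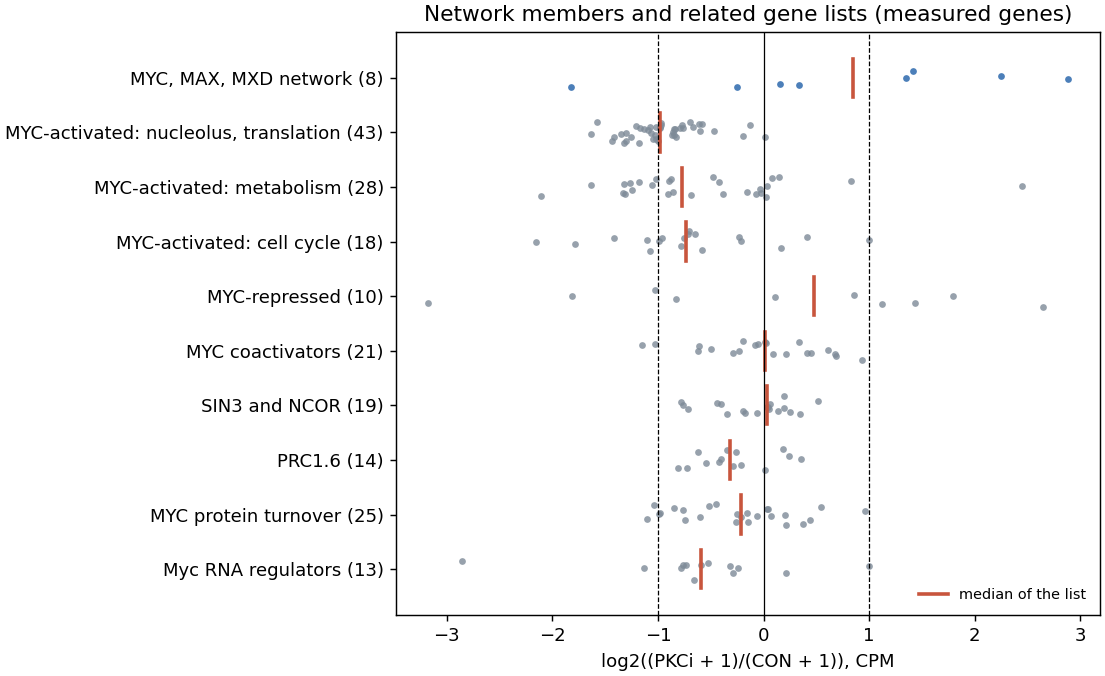
Log2((PKCi + 1)/(CON + 1)) in CPM of each measured gene in the network and in 9 related lists, 1 point per gene (vertical scatter has no meaning), with the list median in red, the number measured in brackets and dashed lines at 2-fold. The medians of the 3 MYC-activated lists lie between −0.98 and −0.73, those of the coactivator and SIN3 lists near 0, and that of the network at 0.85.

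The E-box was more common among these MYC-activated genes than among measured genes at large, but its presence did not go with a larger difference. Of the 78 genes of the 3 lists with a RefSeq promoter, 22 (28.2%) held CACGTG, against 11.9% of 8987 measured genes with a promoter. Examples with the E-box in capitals and 12 bases on each side show the site in genes of each list.
Max (chr12:76962234-76962263, minus strand): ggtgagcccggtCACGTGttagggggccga
Nop2 (chr6:125131811-125131840, plus strand): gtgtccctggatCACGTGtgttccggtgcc
Hspd1 (chr1:55088306-55088335, minus strand): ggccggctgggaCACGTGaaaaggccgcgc
Impdh2 (chr9:108560314-108560343, plus strand): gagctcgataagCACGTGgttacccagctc
Slc16a1 (chr3:104638452-104638481, plus strand): gcggcgccgggtCACGTGgcgggaaggggg
Cdk4 (chr10:127063351-127063380, plus strand): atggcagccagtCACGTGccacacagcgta
Max is shown for comparison with the targets. The printed targets were all lower with PKCi. Exosc5 and Paics, which are also listed and hold an E-box, are not printed and had log2 ratios of 0.01 and 0.08. Nop2, a ribosomal RNA methyltransferase gene, was at 231 and 117 CPM, Impdh2, of guanine nucleotide synthesis, at 207 and 99.1 CPM, the lactate transporter gene Slc16a1 at 686 and 274 CPM, and the cell cycle kinase gene Cdk4 at 371 and 237 CPM. Among the 22 listed genes with an E-box the median log2 ratio was −0.88 and 9 were lower by 2-fold or more. Among the 56 without one the median was −0.86 and 20 were lower by 2-fold or more. In the nucleolar list the median was −0.98 for 14 genes with an E-box and −0.98 for 24 without. It was −1.06 for 5 and −0.68 for 19 in the metabolic list, and −0.65 for 3 and −0.78 for 13 in the cell cycle list. Over all 8987 genes, the 1071 with an E-box had a median of −0.05 and the 7916 without one −0.01, and 5.51% and 5.07% were lower by 2-fold or more. The Cdk4 window held 4 E-boxes, of which the first is printed.

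Genes described as repressed by MYC were on both sides. Of 10 measured, 4 were higher by 2-fold or more and 3 lower by 2-fold or more, with a median of 0.48. This median was 0.05 with no filter on low values and 0.85 without genes in another list. Among all measured genes 6.53% were higher and 5.13% lower by 2-fold or more. Ndrg1, a gene of stress and differentiation, had 2576 counts (160.1 CPM) in CON and 16202 counts (1008 CPM) in PKCi, 6.30-fold higher. The antiproliferative gene Btg2 was at 10.9 and 40.4 CPM and its relative Btg1 at 337 and 913 CPM. Cdkn1a, which encodes the cell cycle inhibitor p21, was at 37.2 and 82.1 CPM. Thrombospondin 1 (Thbs1), the receptor gene Pdgfrb and the stress gene Gadd45b were 9.13-, 3.62- and 2.16-fold lower. Pdgfrb, at 88.4 and 24.4 CPM, is also a fibroblast marker. The 7 fibroblast markers summed to 100.9 CPM in CON and 38.3 CPM in PKCi, most of it Pdgfrb, and 1 of them was at 0 in both libraries. Of the 5 that were measured, 3 were above 0 and 2 below, with a median log2 ratio of 0.85, so the sum and most of the markers differed in opposite directions. Levels other than that of Pdgfrb were mostly low, with a median over the 7 of 1.62 CPM as a mean of both libraries. Dcn and Col3a1, both above 0, had means of 0.56 and 1.33 in log2(CPM + 1), so their ratios rest on few counts. Their part in the result was not tested.

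Of 21 measured genes of coactivators that bind MYC, 0 were higher by 2-fold or more and 2 lower by 2-fold or more, near the 6.53% and 5.13% of all measured genes, with a median of 0.02. At 1.5-fold 4 were higher and 4 lower, where 16.8% and 16.7% of all measured genes were. The 2 were Ruvbl1 (118 and 52.9 CPM) and Ruvbl2 (139 and 67.9 CPM), paired ATPases of chromatin remodellers. The acetyltransferase gene Ep300 was at 115 and 220.5 CPM and Trrap, a scaffold that MYC binds, at 178 and 288 CPM. Of 19 SIN3 and NCOR corepressor genes, through which MXD proteins and MNT act, 0 were different by 2-fold or more and the median was 0.03. Their log2 ratios ran from −0.78 for Sap18 to 0.51 for Ncor1. At 1.5-fold 0 were higher and 3 lower.

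Of 14 PRC1.6 subunit genes, with which MGA acts, 0 were different by 2-fold or more, 3 were lower and 0 higher by 1.5-fold, and the median was −0.32. Of all measured genes, 5.13% were lower and 6.53% higher by 2-fold or more, and 16.7% and 16.8% by 1.5-fold. With 14 genes, such counts do not set the list apart. L3mbtl2, a methyl-lysine reader of the complex, was 1.78-fold lower at 73.6 and 41.5 CPM, and Tfdp1, a dimer partner of E2F6, 1.66-fold lower at 294 and 178 CPM. Of 12 germline genes known to be silenced by MGA and PRC1.6, 1 was measured and 5 were at 0 counts in both libraries. The measured gene was Dazl, a germ cell RNA-binding protein, with 53 counts in CON and 3 in PKCi (17.6-fold lower, 95% interval 5.72 to 88.3). It reached 1 CPM in CON only, and its level in PKCi was at the floor of 3 counts. With the pseudocount its log2 ratio was −1.86.

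MYC is a short-lived protein, and of 25 measured genes that act on its turnover 0 were higher by 2-fold or more and 2 lower by 2-fold or more, near the 6.53% and 5.13% of all measured genes, with a median of −0.21. At 1.5-fold 1 was higher and 8 lower, where 16.8% and 16.7% of all measured genes were. The 2 were Plk1 and Cip2a, an inhibitor of the phosphatase that destabilises MYC (143 and 69.0 CPM). Aurka, a mitotic kinase that stabilises MYC family proteins, was at 152 and 76.1 CPM, and Skp2, a ubiquitin ligase gene, at 70.1 and 34.8 CPM. Among 13 measured regulators of Myc RNA 1 was higher by 2-fold or more and 2 lower by 2-fold or more, with a median of −0.59. Igf2bp1, which binds and protects Myc messages, had 492 counts (30.6 CPM) in CON and 54 counts (3.36 CPM) in PKCi, 9.10-fold lower (95% interval 6.86 to 12.3). Hnrnpd, which binds AU-rich elements, was at 193 and 87.4 CPM and Zfp36, which promotes decay of such messages, at 7.83 and 16.7 CPM. Pvt1, the noncoding gene next to Myc, had 167 counts in CON and 90 in PKCi (1.85-fold lower, 95% interval 1.43 to 2.42), the opposite direction to Myc.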

How the data were processed

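Per the labels' descriptions, stranded poly(A) mRNA libraries were sequenced in paired ends, but the extraction protocol in the same labels names retinas and a kit that does not mark strand, a conflict that could not be settled and that bears on Mxd3. HISAT2 2.0.5 and the builds GRCm38 and mm10 are named per the submitters' processing notes. How reads were counted, with which strand setting and annotation, is not given in the sources used here. Raw counts per gene are what the deposited table holds, as the authors made them, although its name speaks of FPKM, and 0 of its sample columns were left unassigned. Groups follow the treatment in the labels.

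Measured genes reached 1 CPM in either library. The pseudocount of 1 CPM shrinks differences of low genes. Deposited lengths, used for TPM, equalled all merged GENCODE M21 exons for 9 of the 10 members and so include noncoding transcripts. Intervals of ratios of sums are normal approximations on the log scale. Values compare 2 libraries, and no test was made. The procedure was tested on simulated counts with counting error only, which cannot speak to differences between cultures. Alternatives were TMM (edgeR 4.0.16), median-of-ratios and TPM scaling, pseudocounts of 0.1 and 5 CPM, no filter or one of 5 CPM, 1.5-fold, and lists without shared genes (Python 3.11.15, scipy 1.17.1).

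The members and the 11 lists were chosen with earlier results of these data known, and the 4 motifs, the E-box and the bHLH comparisons after values were seen. The text names all members, the MLX branch, up to 4 genes a list by absolute log2 ratio, the 3 protein-coding genes nearest to Myc and to Mxd4 (at 5 CPM or more in a library), and genes that a small count or an example pointed to.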

Additional observations from a re-analysis of the deposited data

How the results depend on the processing

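With 1 library per group no replicate could be left out, and no spread between cultures is known. No paired analysis was possible because each group has 1 library. TMM, median-of-ratios and TPM scaling shifted the median log2 ratio of all genes by at most 0.01, and none of the settings tried turned the direction of a measured member or moved the counts of 4 members higher and 1 lower by 2-fold or more. The log2 ratios moved beyond counting error with a pseudocount of 5 CPM, to 2.29 for Mxd4, 1.92 for Mxd1 and −1.42 for Mxd3, since a larger pseudocount shrinks low genes. The antagonist to MYC family ratio with PKCi over CON was 2.06 in CPM not divided by length, 1.21 without Mnt, and, as settings chosen after seeing the data, 1.34 with the longest coding transcript as length and 2.56 without Mxd3.

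The count of 2-fold or more higher MYC-activated cell cycle genes was 0 with TMM, median-of-ratios and TPM scaling and with a pseudocount of 5 CPM. That of Myc RNA regulators was 0 with TMM and median-of-ratios scaling and with a pseudocount of 5 CPM, and that of turnover genes was 1 with a pseudocount of 0.1 CPM. Lower by 2-fold or more were 1 coactivator gene with a pseudocount of 5 CPM and 1 turnover gene without genes in another list. At 1.5-fold, chosen after seeing the data, lower genes numbered 38 in the nucleolar, 13 in the cell cycle, 4 in the coactivator, 3 in the SIN3, 3 in the PRC1.6, 8 in the turnover and 7 in the Myc RNA list, and higher genes 2 in the metabolic, 4 in the coactivator and 1 in the turnover list. Of all measured genes, 16.7% were lower and 16.8% higher at 1.5-fold. Genes such as Mycl, Mycn and Dazl are limited by depth.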
